A study of Mus musculus with 4 samples.

Results

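The Sox2 region on mouse chromosome 3 was described from H3K27ac HiChIP of embryonic stem cells. HiChIP ligates DNA ends that lie near each other in fixed nuclei and then enriches, with an antibody, the ligated fragments that carry a chromatin mark, here H3K27ac, the acetylation of histone H3 found at active enhancers and promoters. Its result is a count of read pairs for each pair of anchors, the genomic intervals between which contacts were tallied. The region was taken as every pair with at least 1 anchor overlapping chr3:34600000-34800000 (GRCm38), an interval that holds Sox2, the end of its overlapping transcript Sox2ot and the sequence downstream of both. This rule gave 348 of the 1513030 pairs in the table and 6 of its 56562 anchors, with both anchors inside for 15 pairs and 1 anchor inside for 333. The rule used position and no counts.

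The libraries came from 2 strains. The B6 group was C57BL/6J, with lines B6 4-1 (replicate 1) and B6 5-1 (replicate 2), and the D2 group was DBA/2J, with lines D2 2-9 (replicate 1) and D2 5-5 (replicate 2). Each line gave 1 library and the labels call the lines of a strain biological replicates. All 4 lines grew in serum medium with LIF, the cytokine that holds mouse embryonic stem cells undifferentiated, and with PD0325901 and CHIR99021, inhibitors of the kinases MEK and GSK3. The labels name no treatment that differs between the strains.

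Sox2 encodes a transcription factor of the SRY-related family that works with Oct4 (the product of Pou5f1) to keep embryonic stem cells pluripotent and that later marks neural progenitors. Its gene has a single exon and lies in a large stretch with few other coding genes, inside the long noncoding transcript Sox2ot. In mouse embryonic stem cells Sox2 is known to depend on a distal cluster of enhancers downstream of the gene, called the Sox2 control region, which contacts the promoter over a long distance. CTCF, a DNA-binding protein, can halt cohesin and so mark the ends of chromatin loops, and the orientation of its motif matters for which ends meet.

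The label "distal control region" found no anchor of its own in the table. In GENCODE the gene Sox2 spans chr3:34650405-34652461 on the plus strand, and distances below are counted from its start site at 34650405, to the midpoint of an anchor. No anchor overlapped the interval 100 to 120 kb downstream of that start site, chr3:34750405-34770405, and the stretch without any anchor ran from 34728996 to 34785334, over 56.3 kb. Contacts of the control region were therefore not analysed here. The deposited anchor widths and positions differ by gene, and why this stretch has none was not tested. The 6 anchors that were counted are the Sox2 anchor, the Gm3143 anchor and 4 narrower ones.

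The sequences behind the pairs are shown first, because anchors were cut at the DpnII site GATC and because the 2 widest anchors carry the largest count. The ends of these anchors are given with 12 bases before the anchor edge, on the plus strand of GRCm38.p6, and capitals mark GATC.
Sox2 anchor start, chr3:34638612-34638639: agacaacaccctGATCtggcatggtcgc
Sox2 anchor end, chr3:34680602-34680629: taatagggatagGATCttacataaatca
Gm3143 anchor start, chr3:34685335-34685362: ttaagtaggaaaGATCactagtgagtta
Gm3143 anchor end, chr3:34720915-34720942: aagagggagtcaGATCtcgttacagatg
The Sox2 anchor held 88 GATC sites, the Gm3143 anchor 95 and the stretch without an anchor 135, so the reference holds cutting sites in that stretch too.

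The Sox2 promoter, the 250 bases before the RefSeq start site on the plus strand (chr3:34649745-34649994, GRCm38.p6), is shown because it is the stretch before the gene's RefSeq start inside the Sox2 anchor. The RefSeq start, 34649995, lies before the GENCODE start at 34650405 from which distances are counted. The bases between these starts are not among the letters shown.
Sox2 promoter: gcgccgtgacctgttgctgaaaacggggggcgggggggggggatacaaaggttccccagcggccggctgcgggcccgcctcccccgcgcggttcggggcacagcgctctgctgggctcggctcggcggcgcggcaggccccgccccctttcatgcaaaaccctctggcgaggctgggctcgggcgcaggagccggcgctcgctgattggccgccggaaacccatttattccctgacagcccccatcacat
None of 6 searched motifs was in these letters on either strand. They were the octamer ATGCAAAT, a composite Oct-Sox site (TTGT, any base, then ATGCAAA), a Sox core ACAATGG, an Esrrb site TCAAGGTCA, a Klf site GGGNGTGG and a CTCF core (CCA, any 2 bases, AGG, any base, then GGC). Of 32851 promoters, 1.6%, 0.0335%, 3.02%, 0.387%, 15.9% and 0.816% held them in that order. The composite ends in the first 7 letters of the octamer, so matches of those 2 motifs can overlap.

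The 300 bases of the Gm3143 anchor with the most kinds of these motifs (the first such window by position) held a CTCF match on the minus strand and a Klf match on the plus strand, both in capitals (chr3:34695363-34695662, plus strand).
Gm3143 anchor window: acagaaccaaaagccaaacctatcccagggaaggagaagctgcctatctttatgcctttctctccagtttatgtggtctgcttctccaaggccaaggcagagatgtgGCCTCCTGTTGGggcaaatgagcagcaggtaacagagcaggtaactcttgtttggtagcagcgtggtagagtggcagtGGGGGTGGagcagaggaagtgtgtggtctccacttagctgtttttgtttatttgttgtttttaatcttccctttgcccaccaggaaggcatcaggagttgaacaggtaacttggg
Windows of 300 bases with 2 or more of the 6 motifs made up 0.719% of 57289 such windows in the anchors of chromosome 3, and 0.428% of them held the CTCF core. Those windows were not selected, while the window shown was picked as the best of a wide anchor. The shares therefore do not say how unusual it is. The Sox2 anchor also had a window with 2 kinds of motif, a Sox and a Klf match. The CTCF matches in the region's anchors and in the stretch without an anchor are given with 9 bases on each side, plus strand, with the match in capitals.
Sox2 anchor, chr3:34640889-34640918, minus strand: cacgccagcGCCCCCTATTGGacgcagtgg
Sox2 anchor, chr3:34647878-34647907, plus strand: gcaagtccaCCAGCAGGGGGCgcagcagcc
Gm3143 anchor, chr3:34695461-34695490, minus strand: agagatgtgGCCTCCTGTTGGggcaaatga
Stretch without an anchor, chr3:34760095-34760124, minus strand: tgccacaccGCCTCCTGCTGGcggctagtt
Counted from the Sox2 start site these matches lay at -9.51 kb, -2.52 kb, 45.1 kb and 110 kb. The match nearest the promoter was the only plus-strand one of the 4, and those at 45.1 kb and 110 kb were on the minus strand. The interval 100 to 120 kb downstream also held 24 Klf matches, 3 Esrrb matches and 1 Sox match, and 0 octamer or composite matches. Per 10 kb these were 12 Klf, 1.5 Esrrb and 0.5 Sox matches, where the anchors of chromosome 3 had 3.53, 0.324 and 1.47 on average. The 6 anchors of the region had 4.5 to 8.28 Klf, 0 to 3.12 Esrrb and 0 to 6.25 Sox matches per 10 kb. In the narrow anchors these values rest on few matches. A match is a description of letters and was not tested as a site.

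Total counts per library were 2908329 and 2800847 for B6 and 2767882 and 2944258 for D2, and values below are CPM, counts scaled to these totals. D2 replicate 1 stood apart in the summed counts of stem cell gene anchors. The summed CPM of the 9 of 10 stem cell markers with an anchor, Sox2 among them, was 2050 and 2230 in B6, 3210 in D2 replicate 1 and 2150 in D2 replicate 2. The excess was largest at Nanog (981 CPM against 496 and 518 in B6), Tbx3 (682 against 341 and 427) and Sox2 itself (332 against 173 and 213). D2 replicate 1 was not the highest library at Klf4 (130 against 132 and 134) or Prdm14 (82.4 against 82.2 and 92.5). The name of the D2 replicate 1 library carries 10cyc where the other 3 carry 8cyc. The 7 neural markers summed to 156 to 184 CPM, the 4 of 5 endoderm markers to 61.1 to 71.0, the 4 of 5 mesoderm markers to 212 and 203 in B6 and to 247 and 261 in D2, the 3 of 4 trophoblast markers to 150 to 168, and the 2 of 5 fibroblast markers to 4.7 to 10.3. Esrrb, Foxa2, Hand1, Elf5, Col1a1, Col1a2 and Col3a1 had no start site in an anchor. The mesoderm sum thus had both D2 libraries above both B6 libraries, as the Sox2 region did, and its part in the result was not tested. The part of D2 replicate 1 in the strain differences below is shown by the values without it, and its cause was not tested.

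The counts of the Sox2 region were higher in D2 than in B6. The 348 pairs held 0.0294% and 0.0335% of all counts in the B6 libraries and 0.0498% and 0.0397% in the D2 libraries, a mean of 0.0314% ± 0.00292 (SD, n = 2) against 0.0448% ± 0.0071 (SD, n = 2). The strains did not overlap, and D2 replicate 1 was the highest. The difference of the means was 0.0133 percentage points, and it was 0.00831 without D2 replicate 1. Pairs in the surroundings, with both anchors within 1 Mb of the region but none in it, also summed higher in D2, with 412 and 444 CPM in B6 and 494 and 486 CPM in D2 over 756 pairs, a log2 ratio of 0.19. With 2 libraries a strain the smallest p of an exact permutation test is 0.333, so these values stand without a test. In bulk libraries a contact made in more cells and a contact with more H3K27ac cannot be told apart.

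Of the 6 anchors 3 rose in D2, and all 6 had a log2 fold change above 0. The called ones were the anchor over Sox2, the anchor over the noncoding gene Gm3143 and the narrow anchor between them. Here an anchor's count is the sum over all its pairs, and a call is an adjusted p under 0.05 in edgeR's quasi-likelihood F-test, corrected by Benjamini-Hochberg over all anchors with at least 20 counts. In that test 2.67% of the 51820 anchors were called higher in D2 and 7.08% lower. Over the 6 anchors the median was 0.56 on the log2 scale, against 0.01 over all anchors tested, and 5 of the 6 had both D2 libraries above both B6 libraries, against 21.5% of all anchors. These 6 neighbours share pairs with each other and are not independent.

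The Sox2 anchor, chr3:34638624-34680614, was 42.0 kb wide where the median anchor was 4078 bp. It covered the whole Sox2 gene, start sites of Sox2ot and the start sites of the predicted genes Gm27611, Gm42692 and Gm42693, so contacts of the promoter cannot be told apart from those of the neighbouring sequence. It had 503 and 596 counts in B6 and 918 and 713 in D2. Scaled by library totals these were 173 and 213 CPM in B6 and 332 and 242 CPM in D2, or 193 ± 28.2 against 287 ± 63.3 (SD, n = 2 each). The D2 libraries lay above the B6 libraries with no overlap. D2 over B6 was 0.62 on the log2 scale (SE 0.18, edgeR adjusted p = 0.0185). Without D2 replicate 1 it was 0.31 (adjusted p = 0.281), and the call was also lost without B6 replicate 1 (0.49, adjusted p = 0.404) and without B6 replicate 2 (0.75, adjusted p = 0.131).

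The Gm3143 anchor, chr3:34685347-34720927, was 35.6 kb wide and held the noncoding gene Gm3143 (chr3:34699640-34716662, minus strand). It had 477 and 518 counts in B6 and 843 and 665 in D2. The levels were 164 and 185 CPM in B6 and 305 and 226 CPM in D2, or 174 ± 14.8 against 265 ± 55.7 (SD, n = 2 each), again with no overlap and with D2 replicate 1 on top. D2 exceeded B6 by 0.65 on the log2 scale (SE 0.18, edgeR adjusted p = 0.0109), and without D2 replicate 1 it was 0.35 (adjusted p = 0.177). The call was also lost without B6 replicate 1 (0.58, adjusted p = 0.269) and without B6 replicate 2 (0.72, adjusted p = 0.154). Both wide anchors had 92 pairs.

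The anchor between them, chr3:34681253-34684455, lay 32 kb downstream of the start site, was 3.2 kb wide and held the start site of Gm43206. Its levels of 21.7 and 26.8 CPM in B6 and 39.7 and 37.0 CPM in D2 gave 24.2 ± 3.62 against 38.4 ± 1.92 (SD, n = 2 each). For this anchor the D2 libraries were close to each other and both were above B6. The fitted D2 over B6 value was 0.70 on the log2 scale (SE 0.19, edgeR adjusted p = 0.00958), and the call was lost without D2 replicate 1 (0.59, adjusted p = 0.127) and without B6 replicate 1 (0.57, adjusted p = 0.223). Per kb of width this anchor had 111 counts over the 4 libraries, the Gm3143 anchor 70.3 and the Sox2 anchor 65.0. Without the pairs that join anchors of the region to each other, the values were 0.22 for this anchor, 0.43 for the Gm3143 anchor and 0.37 for the Sox2 anchor, with edgeR adjusted p = 0.813, 0.0906 and 0.172. DESeq2 called 0 of the 6 anchors, with 3 at an unadjusted p under 0.05. Over all 51820 anchors it called 238 higher and 1069 lower, with 5349 at an unadjusted p under 0.05.

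The anchors further downstream were not called. The anchor 77 kb downstream, chr3:34725720-34728996, had 23.4 and 19.3 CPM in B6 and 32.2 and 27.2 CPM in D2, with no overlap (log2 fold change 0.51, SE 0.20, edgeR adjusted p = 0.11). The anchor 137 kb downstream, chr3:34785334-34789508, had 14.1 and 18.9 CPM in B6 and 13.7 and 25.1 CPM in D2. There the strains overlapped (0.28, SE 0.24, adjusted p = 0.557), and without D2 replicate 2 the value was -0.17. The anchor 146 kb downstream, chr3:34794220-34797845, had 18.9 and 16.4 CPM in B6 and 20.2 and 24.5 CPM in D2 (0.37, SE 0.22, adjusted p = 0.323). The last anchors lie beyond the stretch without an anchor and beyond Gm38509 (chr3:34772075-34782346), whose start site is in no anchor.

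**Figure D1:**
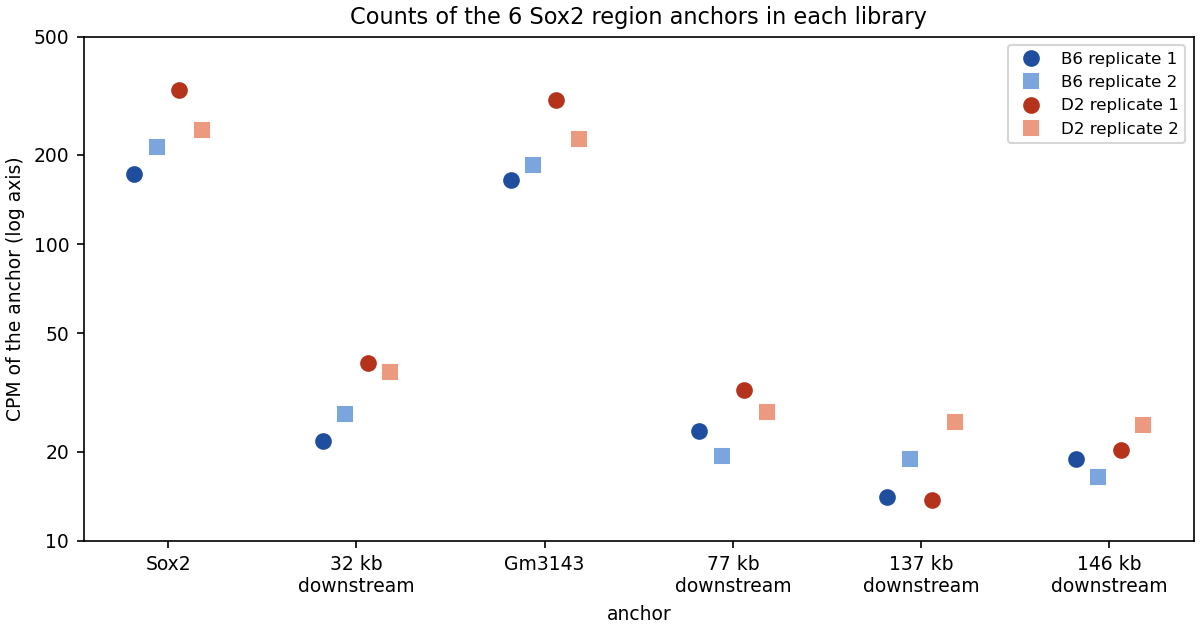
CPM of the 6 anchors of the Sox2 region in each library, on a log axis, with 1 point per library and the narrow anchors named by distance in kb from the Sox2 start site. The Sox2 and Gm3143 anchors stand above the 4 narrow anchors, and D2 replicate 1 has the highest value at both, 332 and 305 CPM.

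Inside the region, the pair of the Sox2 and Gm3143 anchors held by far the most counts. It rose in D2 and was the 1 pair called among the 38 pairs with at least 20 counts, against 0.492% of the 108034 tested pairs called higher in the whole table, 0.957% lower and 1.45% in either direction. Of the region's pairs 0 were called lower by edgeR, and 4 of the 38 had an unadjusted p under 0.05, where 11.7% of all tested pairs did. DESeq2 called 0 of the 38, with 1 at an unadjusted p under 0.05; over all 108034 pairs it called 33 higher and 48 lower, with 2358 at an unadjusted p under 0.05.

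The Sox2 to Gm3143 pair joined midpoints 43.5 kb apart, but the facing edges of these wide anchors were 4.73 kb apart. It had 206 and 249 counts in B6 and 465 and 332 in D2. The levels were 70.8 and 88.9 CPM in B6 and 168 and 113 CPM in D2, or 79.9 ± 12.8 against 140 ± 39.1 (SD, n = 2 each). The strains did not overlap. The pair's log2 value, D2 over B6, was 0.74 (SE 0.22, edgeR adjusted p = 0.0441), and the adjusted p ran from 4.27e-15 to 0.819 over the alternatives. The call was lost without B6 replicate 1 (0.59), without B6 replicate 2 (0.91, adjusted p = 0.499) and without D2 replicate 1 (0.44, adjusted p = 0.414), and DESeq2 gave 0.74 with an adjusted p of 0.21.

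Among pairs with 0.5 to 2 times its total count the shift of this pair was towards the upper end. In the 428 such pairs the median log2 fold change was 0.21, 6.07% were called higher and 5.84% had a value at least as large. D2 replicate 1 exceeded D2 replicate 2 in 82.5% of them, with a median ratio of CPM of 1.21, and for Sox2 to Gm3143 the ratio was 1.49. Higher counts in D2 replicate 1 were thus common among such pairs and not confined to Sox2, though the ratio at Sox2 to Gm3143 was above their median. The part of this in the strain difference was not tested. Among 3295 anchors with a total like that of the Sox2 anchor, the median was 0.14, 5.68% were called higher and 2.7% were at or above the value of the Sox2 anchor. In these anchors the median ratio of D2 replicate 1 to D2 replicate 2 was 1.06, nearer to equal than in the pairs. The Sox2 anchor itself had 332 and 242 CPM in these libraries.

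The rank of the Sox2 to Gm3143 count differed with the pairs it was set against. With 1252 counts it ranked 1 of the 62457 pairs of chromosome 3 and 51 of all pairs. At a like distance (0.9 to 1.1 times its own) it ranked 12 of 17672 pairs, whose median count was 9. Against 81 pairs of like distance and a product of widths 0.5 to 2 times its own it again ranked 12, and their median count was 670. Divided by the product of both anchor widths, it ranked 1679 of those at like distance, at 0.838 counts per square kb against a median of 0.419. Its rank by library was 186 and 67 in B6 and 27 and 51 in D2.

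**Figure D2:**
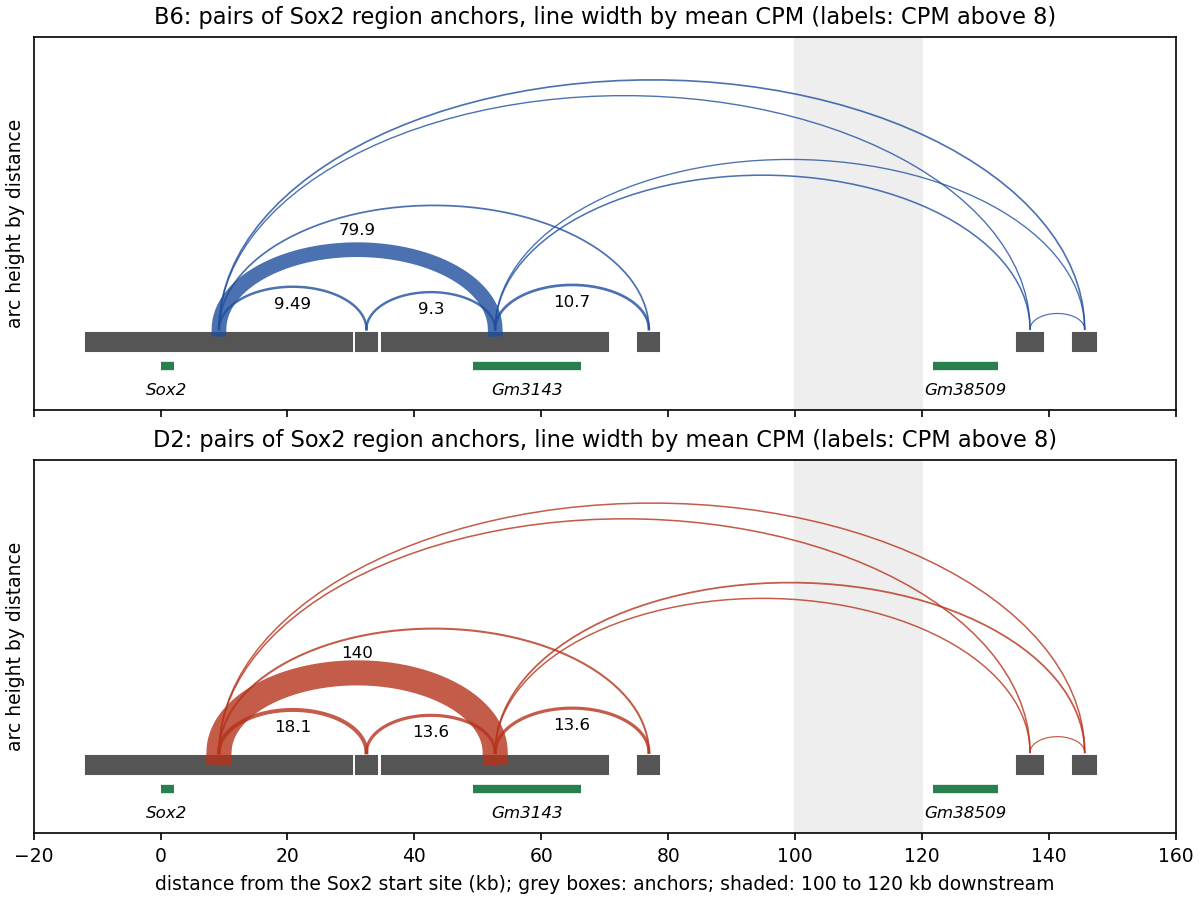
Map of the Sox2 region in B6 (top) and D2 (bottom), with distance from the Sox2 start site in kb on the horizontal axis, anchors as grey boxes, genes in green and arcs whose width follows mean CPM (n = 2 libraries each). The Sox2 to Gm3143 arc is the widest in both strains, 79.9 CPM in B6 and 140 CPM in D2, and no box lies in the shaded interval 100 to 120 kb downstream.

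The other 4 tested pairs among the anchors up to 77 kb had values on the same side, and none passed. Without D2 replicate 1 the pair of the Gm3143 anchor and the anchor at 77 kb turned to -0.08. The Sox2 anchor to the anchor at 32 kb had 22 and 32 counts in B6 and 58 and 45 in D2, or 9.49 ± 2.73 against 18.1 ± 4.01 CPM (SD, n = 2 each), with no overlap (log2 fold change 0.86, SE 0.29, edgeR adjusted p = 0.104). The Gm3143 anchor to the same narrow anchor had 25 and 28 counts in B6 and 34 and 44 in D2 (0.49, adjusted p = 0.556). The Gm3143 anchor to the anchor at 77 kb had 31 and 30 counts in B6 and 46 and 31 in D2 (0.27, adjusted p = 0.80), where D2 replicate 2 was at the level of B6. The Sox2 anchor to the anchor at 77 kb had 16 and 14 counts in B6 and 20 and 20 in D2 (0.35, adjusted p = 0.805).

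Across the stretch without an anchor, the wide anchors' pairs with those at 137 and 146 kb exceeded the median count at like distance. The Sox2 anchor's pairs with the anchors at 137 and 146 kb had 42 and 51 counts over the 4 libraries, where the median at like distance was 5 for each. With widths matched too, the medians were 31 and 26. The Gm3143 anchor's pairs with them had 46 and 48, where the medians were 6 at like distance and 37 and 30 with widths matched. The Sox2 anchor to the anchor at 137 kb had 6 and 12 counts in B6 and 11 and 13 in D2, and to the anchor at 146 kb it had 15 and 13 in B6 and 8 and 15 in D2. The log2 fold changes were 0.34 (edgeR adjusted p = 0.861) and -0.35 (adjusted p = 0.842), so these distal pairs lay on opposite sides of 0. The Gm3143 anchor gave 10 and 14 counts in B6 and 9 and 13 in D2 with the anchor at 137 kb. With the anchor at 146 kb it gave 11 and 6 in B6 and 19 and 12 in D2. Their log2 fold changes were -0.19 (adjusted p = 0.922) and 0.79 (adjusted p = 0.512). The far anchors paired with each other in 9 and 3 counts in B6 and 4 and 8 in D2, with overlap. The other 5 pairs within the region had 1 to 7 counts over the 4 libraries and were not tested. Some of them crossed the same stretch. The anchor at 32 kb had 3 and 3 counts with those at 137 and 146 kb, and the anchor at 77 kb had 7 and 3.

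**Figure D3:**
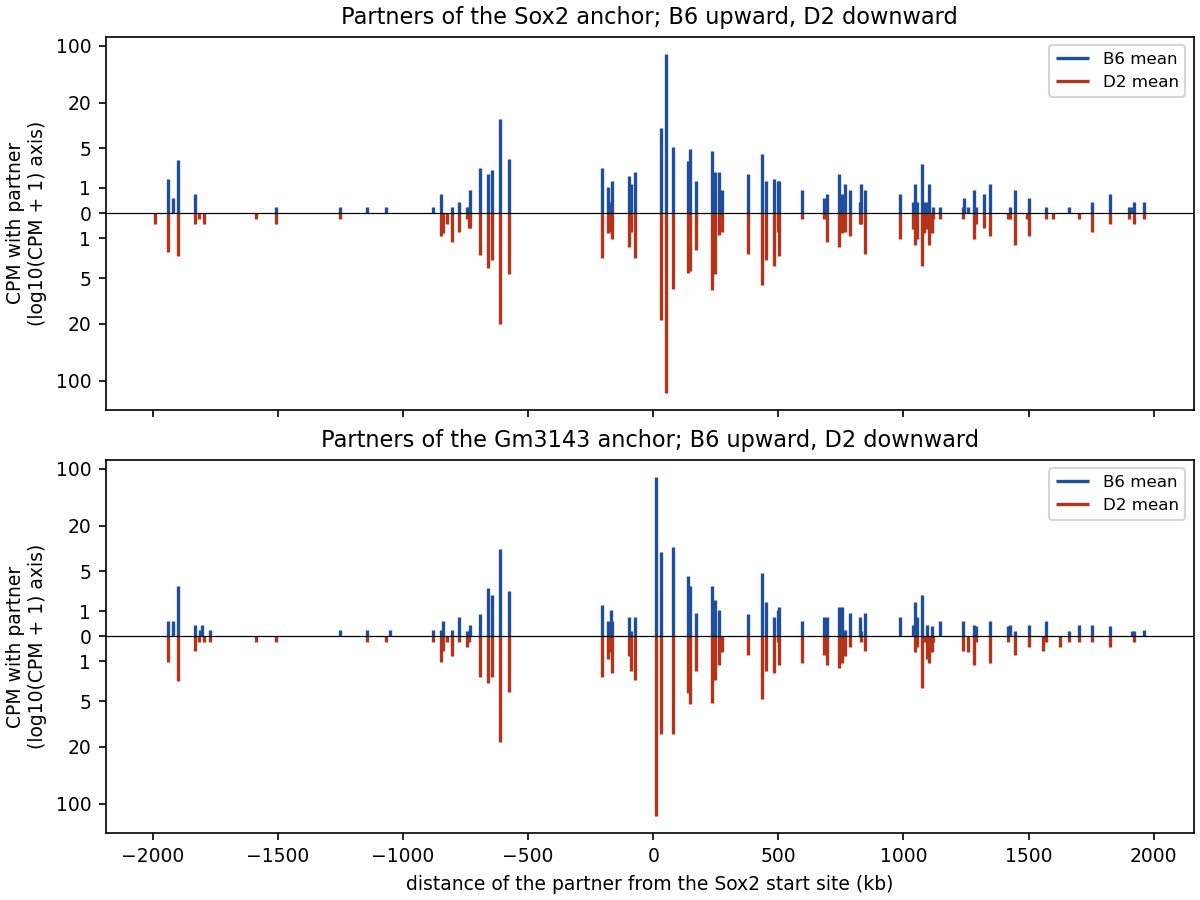
Mean CPM (n = 2 libraries a strain) of each partner of the Sox2 anchor (top) and of the Gm3143 anchor (bottom) against the partner's distance from the Sox2 start site in kb, with B6 drawn upward and D2 downward on a log10(CPM + 1) axis. The highest bar in each panel and strain is the pair of these anchors, 79.9 CPM in B6 and 140 CPM in D2, and the highest bar upstream is the Fxr1 anchor.

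A larger share of the Sox2 anchor's counts reached the Gm3143 anchor in D2. The shares were 41.0% (Wilson 95% interval 36.7 to 45.3) and 41.8% (37.9 to 45.8) in B6 and 50.7% (47.4 to 53.9) and 46.6% (42.9 to 50.2) in D2. The intervals cover counting error only. The means were 41.4% ± 0.583 and 48.6% ± 2.89 (SD, n = 2 each), a difference of 7.24 percentage points, with no overlap of the strains. The interval of D2 replicate 2 overlapped those of both B6 libraries. Within the region as a whole stayed 53.2% ± 0.712 in B6 and 60.4% ± 1.14 in D2 (SD, n = 2 each).

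The rest of the Sox2 anchor's counts split between the sides. Partners upstream of the interval took 22.3% ± 3.95 in B6 and 18.7% ± 0.118 in D2, and partners downstream of it 24.6% ± 3.24 and 20.9% ± 1.02 (SD, n = 2 each). By library the upstream share was 25.0% in B6 replicate 1 and 19.5% in B6 replicate 2, against 18.6% and 18.8% in D2, so B6 replicate 1 alone lay apart. The share of all counts on the downstream side of the Sox2 anchor, 3.55 percentage points higher in D2, differed by 0.752 without B6 replicate 1. In CPM both were higher on average in D2, 42.4 ± 1.35 against 53.6 ± 11.5 upstream and 47.8 ± 13.2 against 59.6 ± 10.3 downstream. Shares and levels thus pointed in opposite directions, since the shares must sum to the whole. The median distance of a Sox2 anchor contact was 83.4 and 91.2 kb in B6 and 43.5 kb in both D2 libraries. The D2 value is the distance to the Gm3143 anchor itself, which the median reaches as soon as that anchor and nearer ones hold most counts.

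**Figure D4:**
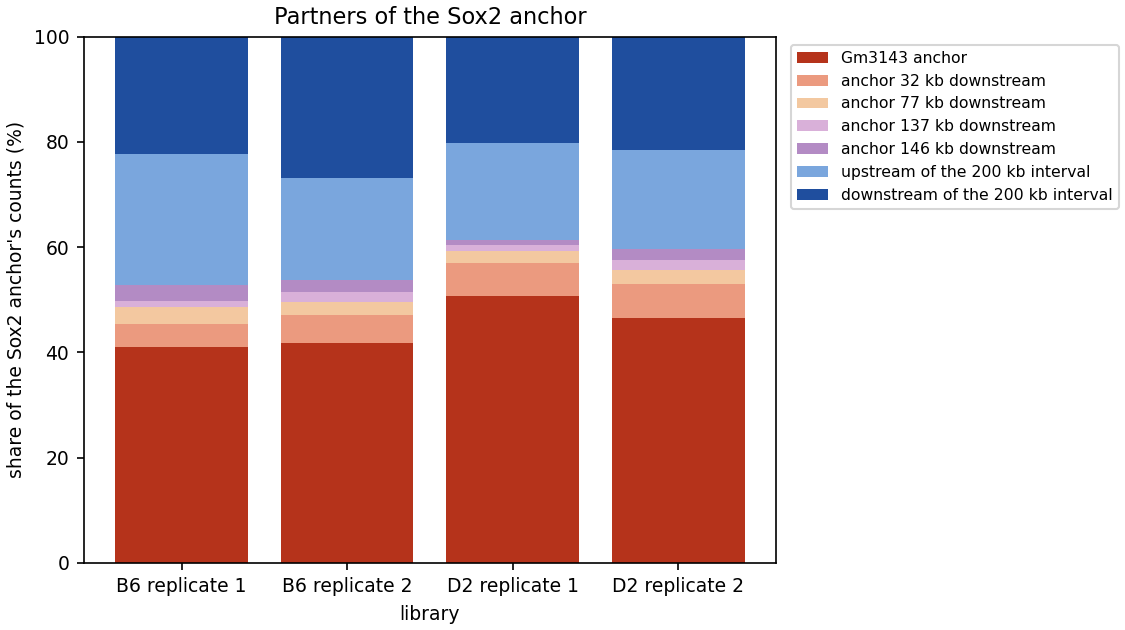
Share of the Sox2 anchor's counts (percent) that went to the Gm3143 anchor, to each other anchor of the region and to partners upstream and downstream of it, stacked to 100% by library. The share to the Gm3143 anchor is 41.0% and 41.8% in B6 and 50.7% and 46.6% in D2.

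Outside the region the leading partner was the anchor over Fxr1, an RNA-binding protein of the fragile X family. That anchor, chr3:34015275-34064127, was 48.9 kb wide and had the most counts of any outside partner with each of the 6 anchors. With the Sox2 anchor, 620 kb away, it had 44 and 27 counts in B6 and 73 and 41 in D2, or 15.1 and 9.64 CPM in B6 and 26.4 and 13.9 CPM in D2. The strains overlapped, since D2 replicate 2 was below B6 replicate 1. Its log2 value, D2 over B6, was 0.62 (SE 0.27, edgeR adjusted p = 0.303), and without D2 replicate 1 it was 0.10. Its 185 counts ranked 2 of 107318 pairs at like distance, whose median count was 2, and 2 of 153 pairs of like distance and width product.

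With the Gm3143 anchor, 663 kb away, the Fxr1 anchor had 32 and 26 counts in B6 and 57 and 43 in D2, with no overlap (0.72, SE 0.28, edgeR adjusted p = 0.224). This pair ranked 9 of 108607 pairs at like distance. With the narrow anchors at 32, 77, 137 and 146 kb the Fxr1 anchor had 9, 10, 11 and 13 counts over the 4 libraries. The Fxr1 anchor itself had 657 and 628 counts in B6 and 817 and 737 in D2 over all its pairs (0.32, adjusted p = 0.275).

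Downstream, the leading outside partners had no start site. The Sox2 anchor met chr3:34882025-34888454, 226 kb away, in 9 and 17 counts in B6 and 26 and 15 in D2. It met chr3:35082408-35090329, 427 kb away, in 7 and 16 counts in B6 and 20 and 15 in D2. For both partners the strains overlapped. The Gm3143 anchor met the same anchors in 47 and 53 counts over the 4 libraries, with log2 fold changes of 0.75 and -0.12 (edgeR adjusted p = 0.56 and 0.932). Upstream, the Sox2 anchor met the anchor over Dnajc19, which encodes a mitochondrial co-chaperone, in 11 and 9 counts in B6 and 14 and 11 in D2. The farthest partner with at least 20 counts was the anchor over Actl6a, a subunit of chromatin remodelling complexes, 1950 kb away, with 3 and 6 counts in B6 and 4 and 7 in D2. The lowest log2 fold change of the region, -0.60, was that of the Sox2 anchor with the anchor over Mrpl47 and Ndufb5, 1910 kb away, at 9 and 10 counts in B6 and 7 and 6 in D2.

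The Sox2 and Gm3143 anchors shared most of these partners. Each had 87 partners outside the region and 81 were the same, 93.1% of each list. These lists include pairs with a single count. The share was not worked out for other wide neighbouring anchors, so it is not shown to be particular to these anchors. With at least 20 counts the Sox2 anchor had 18, of which 9 lay upstream, 9 downstream and 4 over coding start sites, and the Gm3143 anchor had 10. All 10 were among the 18.

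Over the 38 tested pairs, 27 had a log2 fold change above 0 and 11 below, with a median of 0.32 against 0.02 over all tested pairs, of which 51.1% were above 0. The range was -0.60 to 0.99. Both D2 libraries lay above both B6 libraries in 13 of the 38, against 23.8% of all tested pairs, and the reverse held in 1. Strains without overlap in either direction were thus 14 of 38, against 41.7% of all tested pairs. Of the 38 pairs 23 used the Sox2 anchor and 15 the Gm3143 anchor, so they are not independent. Without D2 replicate 1 the median was 0.11. The 38 pairs held 72.4% of the region's 4340 counts and the other 310 fell below the minimum. A single count was all that 121 pairs had, or 34.8%, against 38.7% in the whole table.

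**Figure D5:**
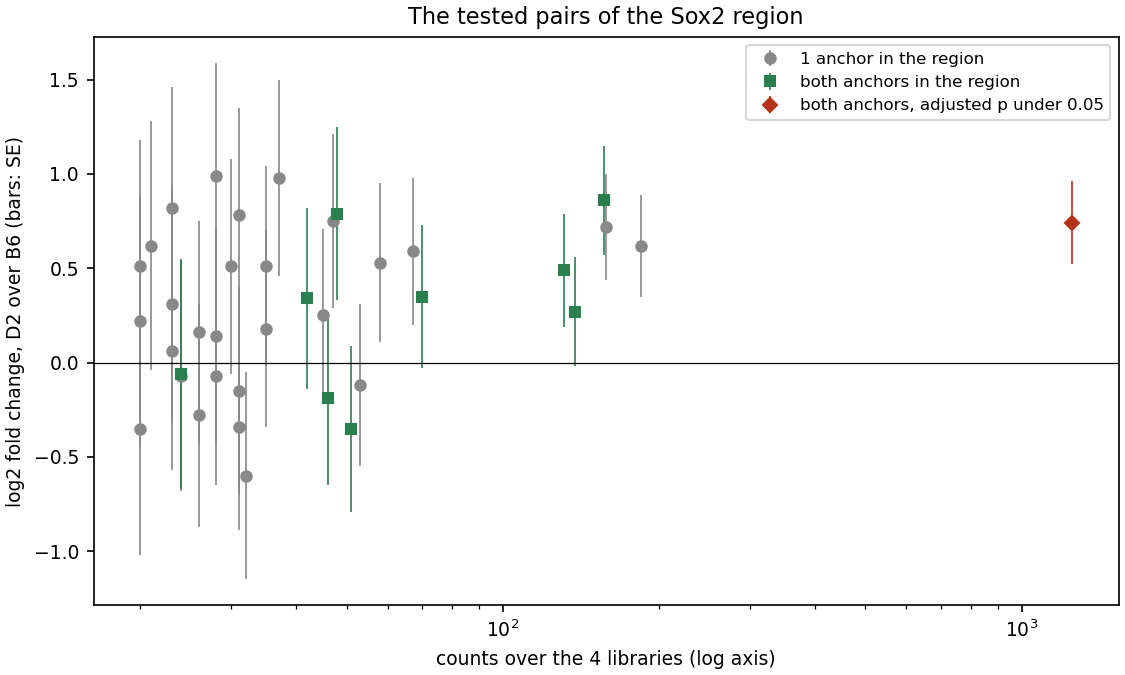
Log2 fold change (D2 over B6) of the 38 tested pairs of the Sox2 region, with bars for the standard error, against counts over the 4 libraries on a log axis, and with pairs inside the region set apart from those with 1 anchor in it. The called pair is the Sox2 to Gm3143 pair at 0.74, and the pairs lie between -0.60 and 0.99.

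By the value between 0 and 1 that the authors deposited for each pair in each library, 67 and 83 of the region's 189 and 190 counted pairs were under 0.01 in B6, and 83 and 91 of 188 and 221 in D2. Of all counted pairs in the table, 20.2% were. Of the 38 tested pairs 26 were under 0.01 in all 4 libraries, against 33.0% of all tested pairs, and 4 were in none. The Sox2 anchor had 34 and 43 such pairs in B6 and 43 in each D2 library, and the Gm3143 anchor 31 and 33 in B6 and 32 and 36 in D2. By this measure the strains overlapped at both anchors.

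Sox2ot, the noncoding transcript around Sox2, spans chr3:34104270-34682619 and has 18 annotated start sites, of which 7 lay in an anchor. The Sox2 anchor held 2 of them and cannot be divided between the genes. The other 5 lay in 1 narrow anchor about 90 kb upstream of Sox2, chr3:34558619-34562507, which is outside the region. It had 18 and 27 counts in B6 and 21 and 22 in D2, with overlap, and 11 of its 88 counts joined it to the Sox2 anchor. Start sites of Sox2ot that were in no anchor included those about 12 kb upstream of Sox2, just before the edge of the Sox2 anchor.

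Within a chosen list of other genes tied to pluripotency, the Sox2 anchor had a D2 shift among the larger ones. The list was broad and held Stat3, Myc, Mycn, Tcf3 (the gene on chromosome 10) and Otx2 beside factors such as Pou5f1 and Nanog. Of 25 listed genes 19 had an anchor over a start site, and by edgeR 2 were called higher and 1 lower, where 9.75% of all anchors were called in either direction. Nanog, a homeobox factor of the naive state, rose from 496 and 518 CPM in B6 to 981 and 588 in D2 (log2 fold change 0.68, SE 0.21, adjusted p = 0.0263). Myc, a growth regulator, rose from 113 and 150 CPM to 194 and 188 (0.58, SE 0.17, adjusted p = 0.0161). Lin28a, an RNA-binding inhibitor of let-7 maturation, fell from 279 and 267 CPM to 139 and 158 (-0.84, SE 0.17, adjusted p = 0.000358). Nanog, like Sox2, was highest in D2 replicate 1, while Myc and Lin28a had close D2 values. The partner of Sox2, Pou5f1, had 459 and 478 CPM in B6 and 493 and 339 in D2 (-0.12, adjusted p = 0.776). The list's median was 0.17, with 13 above 0 and 6 below, and D2 replicate 1 exceeded D2 replicate 2 at 15 of the 19. Counting Sox2, its anchor was rank 2 of 20 by log2 fold change, 6 by total count and 16 by counts per kb.

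The coding start-site anchors with the pattern over libraries most like that of Sox2 were found by the root mean square difference of the 4 centred log2 CPM values. There were 2363 candidates with a total within a factor of 2 of the Sox2 anchor and their median difference was 0.304. The closest was the anchor over Grhl2 on chromosome 15 (0.016), with 88.4 and 108 CPM in B6 and 165 and 124 in D2. Then came the anchors over Rbmxl1 and Slc10a7 on chromosome 8 (0.0338), over Ddc and Fignl1 on chromosome 11 (0.0485) and 2 neighbouring anchors over Mpp6 on chromosome 6 (0.05 and 0.0548). Each of these 5 was highest in D2 replicate 1, as the Sox2 anchor was, which follows from how they were chosen. With 4 libraries such likeness is a description.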

How the data were processed

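Cells of 4 lines were assayed by H3K27ac HiChIP with DpnII. The authors deposited raw read-pair counts for each pair of anchors, and with each a value between 0 and 1, taken as the p-value or q-value of their loop caller; which of these it is is not given in the sources used here. The submitters' processing notes name HiC-Pro 2.11.4, DESeq2 and the build mm10, with no role given. Every chromosome 3 anchor began and ended at GATC in GRCm38, and coordinates are on that build. All letters, cutting sites and motif matches shown are those of this reference. Differences of the B6 or D2 genome from the reference were not examined, and their part in the counts was not tested. Genes came from GENCODE M21, and the promoter from RefSeq.

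Pairs (or anchors, summed over their pairs) with at least 20 counts were tested with edgeR 4.0.16 (limma 3.58.1, R 4.3.3), TMM and Benjamini-Hochberg adjustment over the whole table, with strain as the only term. The test was also run on simulated data. These took their means from the deposited counts and the same dispersion for all rows. There it recovered 2.3% of 2-fold and 29.8% of 3-fold changes for pairs, and 58.2% and 87.9% for anchors. False calls were 0 and 0 for pairs and 3 and 7 for anchors. Most simulated pairs with a 2-fold change were thus missed. Recovery was not split by count, so it does not give the power for pairs with many counts. CPM used the totals of the deposited counts without TMM. A standard error is the size of the log2 fold change over the square root of F. Shares and distances are values without a test.

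Every anchor of the region was described, with all pairs inside it of at least 20 counts and all called pairs. The 3 leading outside partners are given for the Sox2 and Gm3143 anchors, and only the leading one for each narrow anchor. The 5 start-site anchors most like that of Sox2 were also described. The pairs with Dnajc19, Mrpl47 and Actl6a were chosen after their values were seen. The members and lists were chosen with earlier results of these data known. As no anchor covered the control region, the Gm3143 anchor, the partner with the most counts with the Sox2 anchor, was named in its place after the data were seen. Alternatives changed the scaling, the count minimum, the tool (DESeq2 1.42.0), the block and the libraries used.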

Additional observations from a re-analysis of the deposited data

How the results depend on the processing

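The log2 fold changes of the Sox2 anchor, the Gm3143 anchor and the pair of both stayed above 0 under every alternative run, while their calls did not hold under all. Of the region's pairs 1 was called. This became 0 with a minimum of 50 counts, with totals per distance bin and with DESeq2, and 0 to 3 with 1 library left out (3 without D2 replicate 2, 0 without each other one). The 3 called anchors became 0 without a count minimum, with DESeq2 and without the pairs inside the region, the last an alternative added after the data were seen, and 0 to 4 with 1 library left out (0 without B6 replicate 1 or D2 replicate 1, 1 without B6 replicate 2). The Sox2 anchor's 0.62 was 0.61 without a minimum, 0.63 with DESeq2 and 0.37 without the inside pairs, none called (edgeR or DESeq2 adjusted p = 0.119, 0.0867 and 0.172), and 0.31 to 0.88 with 1 library left out. The Gm3143 anchor's 0.65 was 0.64, 0.66 and 0.43 there (adjusted p = 0.0896, 0.0518 and 0.0906) and 0.35 to 0.90. The Sox2 to Gm3143 pair's 0.74 was 0.67 with a minimum of 50, 0.68 with distance bins and 0.74 with DESeq2 (adjusted p = 0.0672, 0.0764 and 0.21) and 0.44 to 1.00. The difference of 7.23 percentage points in counts that stayed inside was 4.49 over pairs of at least 20 counts. The difference in median distance, D2 minus B6, of -43.8 kb was -24.2 kb over pairs with at least 2 counts in a library, 0 kb over those with at least 20 in all, and -47.7 to -39.8 kb with 1 library left out. The region's share differed by 0.0133 percentage points of all counts and by 0.308 of those on chromosome 3, and by 0.00831 to 0.0184 of all counts with 1 library left out. The causes were not tested. With 1 library left out, the lone one is assumed to vary like the others.

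Deviations of same-numbered libraries correlated at -0.002 over pairs of anchors and 0.006 over anchors. Counting noise at low counts draws such values towards 0, so they cannot decide whether same-numbered libraries shared a batch. With the replicate number as a block 1 pair and 3 anchors were called, as without it, at 0.73 for the Sox2 to Gm3143 pair (edgeR adjusted p = 0.0466), 0.60 for the Sox2 anchor and 0.63 for the Gm3143 anchor. Over all anchors the block gave 1863 called higher and 4040 lower, against 1383 and 3671 without it.

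Other settings for the control region were not run, as no anchor lies there. Every inside pair but that of the Sox2 and Gm3143 anchors had under 60 counts in each library, and a p that missed the threshold there does not show that the strains were alike.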
